A study of Rattus norvegicus with 42 samples.

Results

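GABA, the main inhibitory transmitter of the brain, is made, packaged, retrieved and destroyed by a small set of proteins, and 6 genes for them were followed in the hippocampus of neonatal rats exposed to an anti-seizure drug. Gad1 and Gad2 encode the glutamate decarboxylases that make GABA, Slc32a1 the vesicular transporter that loads it into synaptic vesicles, Slc6a11 and Slc6a13 plasma membrane transporters that take it up, and Abat the GABA transaminase that breaks it down. The members are given by gene symbol, and they and the lists below were chosen with earlier results of these data known. Each had 1 RefSeq transcript in the deposited counts, so that 6 of 15516 transcripts (14304 gene symbols) are described here, and all 6 were among the 13062 transcripts that passed the filter on low counts.

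In GABA neurons glutamate is the precursor of GABA, and the transporter encoded by Slc32a1 sits in the vesicle membrane and exchanges protons for GABA or glycine. After release GABA is cleared into neurons and glia. In rodents the Slc6a11 product is known mainly from astrocytes, and the Slc6a13 product mainly from the leptomeninges and blood vessels and, outside the brain, liver and kidney. Abat is a mitochondrial enzyme of neurons and astrocytes that hands the carbon of GABA, through succinic semialdehyde, back to the citric acid cycle. In the first postnatal weeks of the rat, GABA signalling is still maturing from a depolarizing to a hyperpolarizing action, and phenobarbital acts on GABA-A receptors, whereas levetiracetam binds the vesicle protein SV2A.

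Male Sprague Dawley pups received a single intraperitoneal injection on postnatal day 7 of saline vehicle (VEH), of phenobarbital at 75 mg/kg (PB) or of levetiracetam at 200 mg/kg (LEV), and hippocampi were taken 72 h later, on postnatal day 10. All animals were seizure-naive, so the drugs were studied in healthy brain, and the study took 1 animal per litter for each treatment. RNA of 42 animals was sequenced, and 13 VEH, 14 PB and 14 LEV animals are compared, because 1 VEH animal is labelled as excluded by the study. The sample codes have 2 forms, a two-letter code for animals 1 to 6 of each treatment (18 animals) and a one-letter code for animals 7 to 14 (23 animals), and this form was the batch term of the fits, unless another setting is named. The labels do not say what the 2 forms stand for. The study bought its animals in 2 orders, and whether the codes follow the orders cannot be told from the labels. The 2 sets of animals are called the two-letter and the one-letter series.

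Total counts per animal were 9499492 to 14488134. Markers of hippocampal excitatory neurons were abundant in every animal, with 447 to 1106 counts of Prox1 and 2680 to 4391 of Neurod6, and 9 of 10 GABA neuron markers were detected in all 41 animals (the other, Dlx6, was not analysed here). Choroid plexus markers varied most, with a summed level between 6.14 and 7414 CPM (counts scaled to a common library total), and the summed skeletal muscle markers were 9.31 to 31.6 CPM in VEH, 5.76 to 13.3 in PB and 8.66 to 37.7 in LEV. The part of these markers in the differences given below was not tested, apart from the fits with a marker list as covariate that are named. The tissue was bulk hippocampus, so fewer cells of a type and less RNA per cell cannot be told apart. Transcript lengths were not used here, and levels are compared between animals and not between genes.

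The upstream sequences of the genes for synthesis and packaging, whose transcripts are the most characteristic of GABA neurons, are shown for reference beside the values that follow. They are the 250 bases before the start of each gene in RefSeq on assembly GRCr8 (the counts use rn6), all on the plus strand, written 5′ to 3′. Capitals mark the matches to the motifs searched on both strands, none of which overlap one another here. The motifs were the GC box GGGCGG, which read from the opposite strand is CCGCCC, the half-site of the cyclic AMP response element TGACG, the TATA box TATAAA and, for homeodomain factors, the core TAATTA.
Gad1 (chr3:75777202-75777451): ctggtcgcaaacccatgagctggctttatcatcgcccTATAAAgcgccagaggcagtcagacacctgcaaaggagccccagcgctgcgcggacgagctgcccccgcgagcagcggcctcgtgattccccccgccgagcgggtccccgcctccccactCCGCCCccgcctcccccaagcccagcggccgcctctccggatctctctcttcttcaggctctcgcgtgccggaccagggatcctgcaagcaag
Gad2 (chr17:89671468-89671717): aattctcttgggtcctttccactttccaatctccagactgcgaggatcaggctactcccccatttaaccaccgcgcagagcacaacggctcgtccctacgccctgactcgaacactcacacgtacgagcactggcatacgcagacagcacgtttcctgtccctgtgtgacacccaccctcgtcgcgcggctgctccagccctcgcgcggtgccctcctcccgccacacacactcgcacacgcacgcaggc
Slc32a1 (chr3:167686995-167687244): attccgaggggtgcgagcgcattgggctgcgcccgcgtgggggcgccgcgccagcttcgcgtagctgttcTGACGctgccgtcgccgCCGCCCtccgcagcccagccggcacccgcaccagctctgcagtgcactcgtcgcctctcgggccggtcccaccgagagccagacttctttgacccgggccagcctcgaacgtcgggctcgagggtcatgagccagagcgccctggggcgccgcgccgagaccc

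The Gad1 window held 1 GC box and 1 TATA box, the latter 213 bases before the start, and the Slc32a1 window held 1 GC box and 1 half-site TGACG. The Gad2 window held none of the 4 motifs. Of 33469 rat promoter windows of the same length, 30.5% held the GC box, 18.2% the half-site, 12.9% the TATA box and 4.86% the homeodomain core. The 3 windows were rich in G and C, at 68.4% for Gad1, 62.0% for Gad2 and 73.6% for Slc32a1, beside a median of 51.2% over all windows. Slc6a11, with 4 GC boxes and 73.6% G and C, was the only other member with an entry, and Slc6a13 and Abat had none.

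The question of the first comparison was whether a single exposure to PB changed the transcripts of GABA handling. Transcripts for packaging and breakdown were lower in PB-treated animals than in VEH-treated animals, by -17.3% for Slc32a1 and -16.9% for Abat. The synthetic enzymes and the uptake transporters did not pass the test of the main fit (edgeR). By the study's limits for a call (adjusted p under 0.05 and a fold limit equal to 0.32 on the log2 scale), 0 of 6 members were called, beside 0.605% of all transcripts tested. With the adjusted p alone, 2 of 6 members were lower and 0 higher, beside 3.46% of all transcripts lower and 1.93% higher. At an unadjusted p under 0.05 there were 3 of 6, all lower, beside 10.4% of all transcripts lower. DESeq2 called 0 with both limits, but its adjusted p was under 0.05 for Gad1 (0.0405) as well as for Slc32a1 (0.000422) and Abat (0.00568). The same held for 909 of 13062 transcripts in either direction. The median log2 fold change of the members was -0.14, beside 0.0046 over all transcripts.

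**Figure D1:**
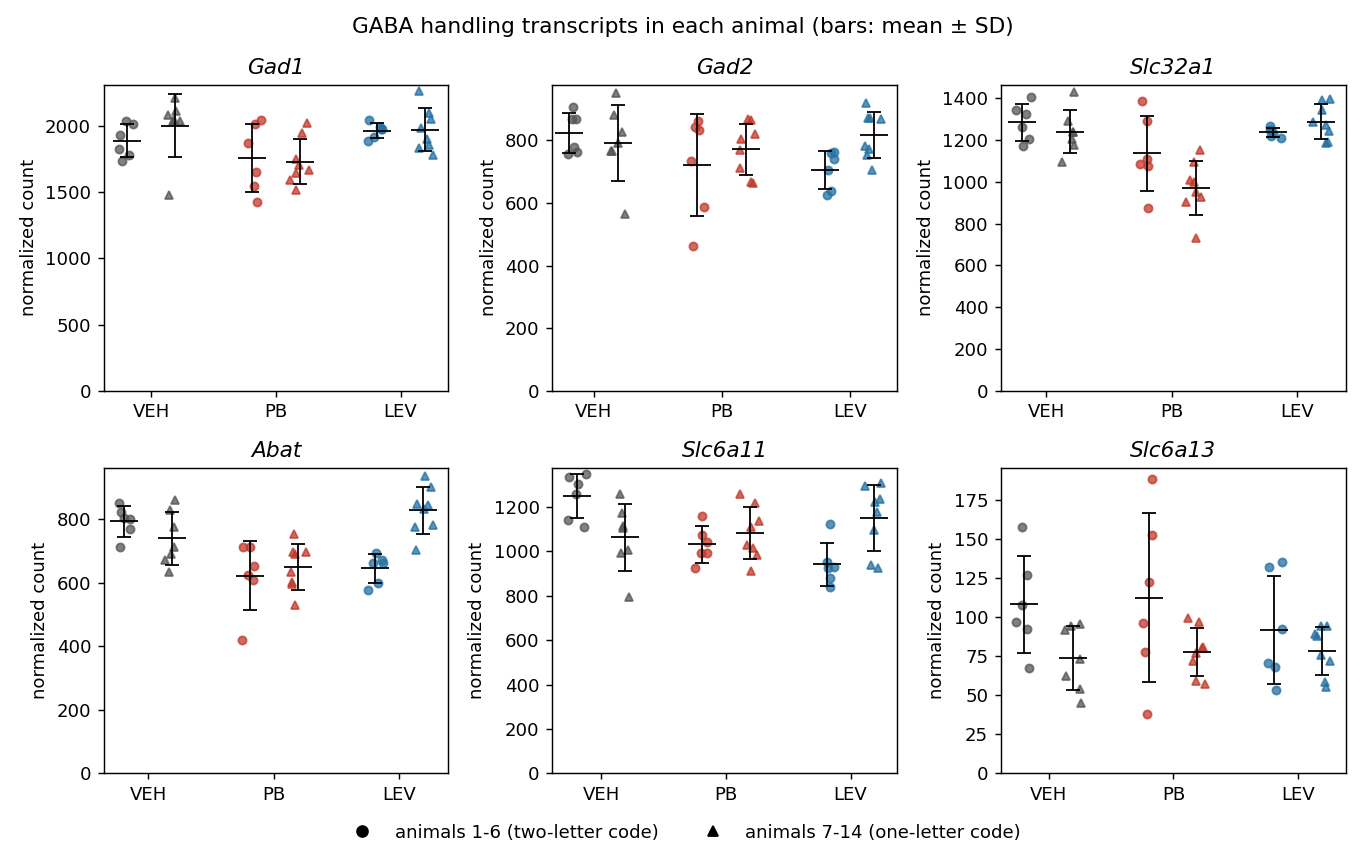
Each point is 1 animal, its normalized count (CPM scaled to the mean effective library size) on a linear axis from 0, by treatment, with circles for the two-letter and triangles for the one-letter series and bars for the mean ± SD of each. Slc32a1 and Abat lie lower in PB, the 8 LEV animals of the one-letter series lie above the 6 of the two-letter series for Abat, and Slc6a13 spreads most.

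Among the enzymes that make GABA, Gad1 (NM_017007, rn6 chromosome 3, 56861440 to 56902140) had normalized counts between 1481 and 2209 in VEH animals (median 2036), between 1424 and 2049 in PB animals (median 1690), and between 1781 and 2269 in LEV animals (median 1975). The ranges overlapped, and 11 of 14 PB values were under the VEH mean of the same series. The log2 fold change in PB against VEH was -0.16 ± 0.05 (SE; 95% interval -0.27 to -0.05; adjusted p = 0.0605), which misses the limit of 0.05. DESeq2 placed it inside the limit, with adjusted p = 0.0405. Against LEV the difference of PB was -0.18 ± 0.05 (adjusted p = 0.0400), and 11 of 14 PB values were under the mean of LEV in the same series.

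Gad2 (NM_012563, chromosome 17, 89171576 to 89234769), the isoform concentrated at nerve terminals, had normalized counts of 565 to 953 in VEH (median 792), 463 to 869 in PB (median 787) and 627 to 919 in LEV animals (median 760). The 3 ranges covered each other almost entirely. The difference of PB from VEH was -0.11 ± 0.07 on the log2 scale (95% interval -0.26 to 0.04; adjusted p = 0.411), and 7 of 14 PB animals lay on each side of the VEH mean. Its lowest value, 463, came from PB animal 2, which was also the lowest PB animal for Gad1, Abat and Slc6a13.

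Slc32a1 (NM_031782, chromosome 3, 155103150 to 155107816) had normalized counts of 1097 to 1430 in VEH (median 1241), 731 to 1387 in PB (median 1043) and 1186 to 1399 in LEV animals (median 1248). The range of PB overlapped those of the other groups over both series, but in the one-letter series the highest of 8 PB animals (1152) lay under the lowest of 8 LEV animals (1186). The log2 fold change was -0.27 ± 0.06 in PB against VEH (95% interval -0.39 to -0.16; fold 1.21; adjusted p = 0.00367) and -0.28 ± 0.06 in PB against LEV (adjusted p = 0.00246). Of 14 PB values, 12 were under the VEH mean of the same series. Both adjusted p values stayed under 0.05 in each of 41 fits that left out 1 animal. In the two-letter series alone the difference from VEH was -0.18 (adjusted p = 0.359), and in the one-letter series alone it was -0.35 (adjusted p = 0.00816), past the fold limit as well. The difference between the series was not past the limit (interaction -0.17 ± 0.11, adjusted p = 0.582).

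Abat (NM_031003, chromosome 10, 7094258 to 7200440) had normalized counts of 634 to 861 in VEH (median 778), 421 to 755 in PB (median 645) and 577 to 938 in LEV animals (median 741). All 3 ranges overlapped, and 13 of 14 PB values were under the VEH mean of the same series. The difference was -0.27 ± 0.07 on the log2 scale in PB against VEH (95% interval -0.41 to -0.13; adjusted p = 0.0160), and its adjusted p stayed under 0.05 in 41 of 41 fits that left out 1 animal. PB animal 2 was far below the rest at 421, and without it the difference was -0.23. Within the two-letter series the difference was -0.35 (adjusted p = 0.0904) and within the one-letter series -0.19 (adjusted p = 0.166), so that neither series alone passed the limit.

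Among the uptake transporters, Slc6a11 (NM_024372, chromosome 4, 146106386 to 146223229) had normalized counts of 795 to 1347 in VEH (median 1141), 911 to 1257 in PB (median 1036) and 838 to 1310 in LEV animals (median 1025). The groups overlapped widely, and the difference of PB from VEH was -0.12 ± 0.07 on the log2 scale (95% interval -0.27 to 0.02; adjusted p = 0.350). Slc6a13 (NM_133623, chromosome 4, 153876149 to 153911967) was the member with the fewest counts, 39 to 214 per animal. Its normalized counts were 45.2 to 158 in VEH (median 92.7), 37.8 to 189 in PB (median 80.7) and 53.3 to 135 in LEV animals (median 82.0). The residual SD of its log2 CPM was 0.45, beside 0.14 to 0.20 for the other members and a median of 0.16 over all transcripts. The difference of PB from VEH was 0.07 ± 0.17 (95% interval -0.27 to 0.41; adjusted p = 0.866), the widest interval of the members.

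**Figure D2:**
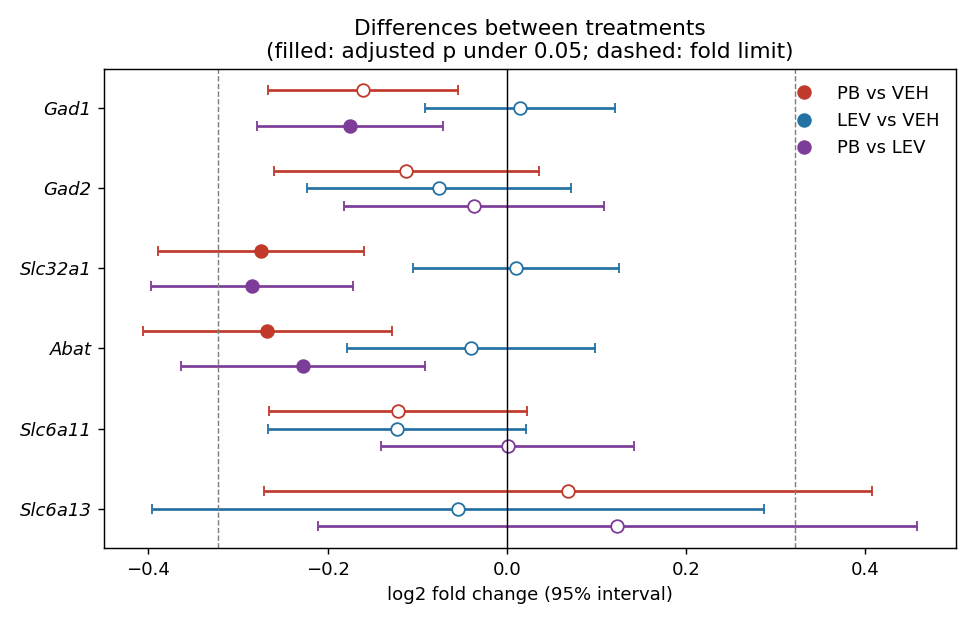
Log2 fold changes of the 6 members (edgeR) with 95% intervals for the 3 comparisons, filled where the adjusted p is under 0.05, with dashed lines at the fold limit of 0.32. Only Slc32a1 and Abat are filled in PB against VEH, Gad1 joins them in PB against LEV, and the intervals of LEV against VEH all include 0.

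In LEV-treated animals the 6 transcripts did not differ from VEH by the test over both series. In LEV against VEH, edgeR called 0 of 6 members by both limits and 0 by the adjusted p, beside 0% and 0.00766% of all transcripts, and 0 of 6 at an unadjusted p under 0.05, beside 5.84%. DESeq2 also called 0. The log2 fold changes were 0.01 for Gad1, -0.08 for Gad2, 0.01 for Slc32a1, -0.12 for Slc6a11, -0.05 for Slc6a13 and -0.04 for Abat. Their 95% intervals were -0.09 to 0.12 for Gad1, -0.10 to 0.12 for Slc32a1 and -0.18 to 0.10 for Abat, so that decreases of the size estimated in PB lay outside these 3 intervals. For Abat, however, the interval pools series on opposite sides of 0. Its differences of LEV from VEH in mean log2 CPM were -0.30 in the two-letter and 0.17 in the one-letter series. The former is of the size estimated for PB over both series (-0.27). The interval for Slc6a11 was -0.27 to 0.02 and for Gad2 it was -0.22 to 0.07.

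PB and LEV were compared with each other because both are given to neonates with seizures. PB animals were lower for Gad1, Slc32a1 and Abat, which are 3 of 6 members by the adjusted p, beside 2.78% of all transcripts lower and 1.67% higher. By both limits 0 of 6 were called, beside 0.582%. Abat differed by -0.23 ± 0.07 on the log2 scale (adjusted p = 0.0429), and 11 of 14 PB values were under the mean of LEV in the same series. In the one-letter series alone Slc32a1 differed by -0.41 (adjusted p = 0.00403) and Abat by -0.35 (adjusted p = 0.0230), both past the fold limit, while in the two-letter series alone they differed by -0.13 (adjusted p = 0.460) and -0.06 (adjusted p = 0.825). Gad1 passed in neither series alone (-0.19 and -0.16, adjusted p = 0.199 and 0.286). Gad2 (-0.04 ± 0.07), Slc6a11 (0.00081 ± 0.07) and Slc6a13 (0.12 ± 0.17) did not pass. Of the 3, Slc32a1 kept an adjusted p under 0.05 whichever animal was left out, and the other 2 did not. The adjusted p of Gad1 passed 0.05 in 19 of 41 fits that left out 1 animal, namely PB animals 1, 2, 6, 7, 8, 9, 10, 11 or 14 or LEV animals 1, 2, 3, 4, 5, 6, 10, 11, 13 or 14, and reached 0.0857. That of Abat did so in 16, namely without PB animals 2, 6, 7, 8, 10, 11 or 14 or LEV animals 1, 2, 7, 9, 10, 11, 12, 13 or 14, and reached 0.0921. The 3 comparisons share animals, so their values are given side by side and not as independent results.

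The difference of LEV from VEH was then compared between the 2 series, and for Slc6a11 it differed. Slc6a11 in the two-letter series had normalized counts of 1112 to 1347 in 6 VEH animals and 838 to 1125 in 6 LEV animals, overlapping only slightly. In the one-letter series it had 795 to 1260 in 7 VEH animals and 925 to 1310 in 8 LEV animals, and the LEV mean was the higher. The difference of LEV from VEH in mean log2 CPM was -0.41 ± 0.08 (SE) in the first series and 0.11 ± 0.11 in the second. Their difference, the interaction of treatment and series, was 0.52 ± 0.12 (edgeR, adjusted p = 0.0237), and Slc6a11 was the only member of 6 past the limit for it, beside 0.842% of all transcripts. Fitted in the two-letter series alone, Slc6a11 was lower in LEV by -0.40 (adjusted p = 0.00250). The interaction lost its call without VEH animal 1 (0.49, adjusted p = 0.0599), LEV animal 3 (0.48, adjusted p = 0.0692) or LEV animal 6 (0.49, adjusted p = 0.0580), and with the excluded VEH animal kept in (0.45, adjusted p = 0.275).

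Abat showed the same order of values, just outside the limit. In the two-letter series the 6 LEV animals (577 to 695) lay below all 6 VEH animals (712 to 851), and in the one-letter series the 8 LEV animals (705 to 938) overlapped the 7 VEH animals (634 to 861). The difference of LEV from VEH was -0.30 ± 0.06 and 0.17 ± 0.08 on the log2 CPM scale, and the interaction was 0.46 ± 0.12 (adjusted p = 0.0500392). It was past the limit in 7 of 41 fits that left out 1 animal (VEH animals 10 or 14, PB animals 2, 7 or 12, LEV animals 8 or 11), with adjusted p down to 0.0139. For PB against VEH no member passed the test of the interaction, beside 0.0689% of all transcripts. The value for Slc6a11 was the one with the smallest p (0.30 ± 0.12, adjusted p = 0.334). For PB against LEV also none passed, beside 0.023%.

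**Figure D3:**
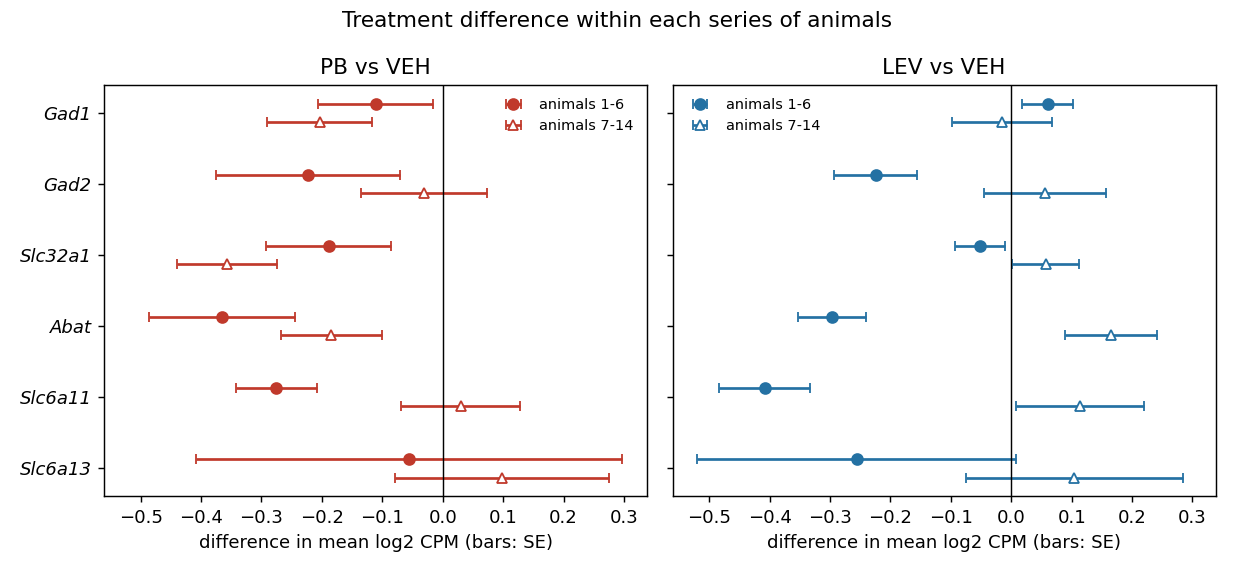
Difference of PB (left) and LEV (right) from VEH in mean log2 CPM for each member, with SE bars, in the two-letter (animals 1 to 6, filled circles) and the one-letter series (animals 7 to 14, open triangles). For PB, Gad1, Gad2, Slc32a1 and Abat lie below 0 in both series. For LEV every member lies on opposite sides of 0 in the series, farthest apart for Slc6a11 (-0.41 and 0.11) and Abat (-0.30 and 0.17).

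Cell type markers were followed beside the members that were lower in PB. By the adjusted p, 3.46% of all transcripts were lower and 1.93% higher in PB against VEH, with a median log2 fold change of 0.0046. In PB against LEV 2.78% were lower and 1.67% higher, and in LEV against VEH 0.00766% passed in either direction. Of 9 GABA neuron markers tested, 1 was lower in PB against VEH (Npas1, -0.18, adjusted p = 0.0325), 0 were higher, and the median was -0.04. Their summed level was 176 to 239 CPM in VEH (mean 210 ± 20.7 SD), 184 to 239 in PB (199 ± 15.1) and 185 to 221 in LEV (206 ± 10.9). Of 6 excitatory neuron markers, 1 was lower in PB (Camk2a, -0.26), with a median of -0.04. Of 15 transcripts of 8 astrocyte markers, 3 were lower and 1 was higher and called (Gfap, the intermediate filament of reactive astrocytes, 0.32, adjusted p = 0.00241), with a median of -0.08. None of the 14 transcripts of leptomeninges and fibroblast markers, 9 of choroid plexus, 4 of endothelium and 3 of red blood cell markers passed in PB against VEH, and all 3 skeletal muscle markers tested were lower and called, with a median of -2.06. In LEV against VEH no transcript of these 8 lists passed. In PB against LEV there passed 1 GABA neuron marker, lower, 2 astrocyte markers, of which 1 was lower and 1 higher, 1 endothelial marker, lower, and the 3 muscle markers, lower. No transcript of the other 4 lists passed there.

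The members were also scaled within each animal to the summed GABA neuron markers, a scale added after the data had been seen. On it Slc32a1 was lower in PB against VEH, by -0.21 in log2 (permutation test within series, two-sided, adjusted p = 0.0238 over 18 tests; 11 of 14 PB animals below the VEH mean), with -0.093 in the two-letter and -0.30 in the one-letter series. Against LEV the difference was -0.24 (adjusted p = 0.00450, 13 of 14 animals), with -0.14 and -0.32 in the series. Abat on this scale differed by -0.19 between PB and VEH (adjusted p = 0.0238, 11 of 14 animals; -0.27 and -0.13 in the series) and by -0.18 between PB and LEV (adjusted p = 0.0833). The other 14 tests did not pass. With the same summed markers as a covariate in the fit across all transcripts, Slc32a1 differed by -0.23 (adjusted p = 0.00936) and Abat by -0.21 (adjusted p = 0.0549) in PB against VEH. Leptomeninges markers as covariate left both past the limit (-0.29 and -0.28). Among animals the summed GABA neuron markers were only weakly correlated with Gad1 (r = 0.10) and Gad2 (r = 0.06). Both relations were negative in the two-letter series (-0.28 and -0.25) and positive in the one-letter series (0.31 and 0.29). Neither the scale nor the covariate can therefore be read as a correction for GABA neuron content.

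Ratios between members within an animal do not depend on the scaling of the libraries, and 9 were tested, 3 ratios in 3 comparisons. Slc32a1 and Abat were set against Gad2 only, and not against Gad1, the other synthetic enzyme. The log2 ratio of Slc32a1 to Gad2 averaged 0.48 ± 0.29 (SD) over the 14 PB animals, 0.65 ± 0.19 over the 13 VEH animals and 0.72 ± 0.16 over the 14 LEV animals. It was lower in PB than in LEV by -0.25 (permutation test within series, adjusted p = 0.0263, 11 of 14 animals; -0.14 and -0.33 in the series), and the difference from VEH, -0.17, did not pass (adjusted p = 0.144), with 0.034 in the two-letter and -0.33 in the one-letter series. The ratio of Abat to Gad2 differed by -0.18 between PB and LEV (permutation test, adjusted p = 0.0301, 12 of 14 animals; -0.07 and -0.26 in the series) and by -0.15 between PB and VEH (adjusted p = 0.0724, 12 of 14 animals; -0.14 and -0.15). The 5 other tests, all 3 of Gad1 to Gad2 among them, did not pass, with differences from -0.13 to 0.09.

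The members were then compared with one another among the 41 animals, after the mean of each treatment in each series had been taken off the log2 CPM. Of the 15 pairs, 14 correlated positively, and 6 passed an adjusted p of 0.05 with Pearson's r and 3 with Spearman's rho (permutation tests, adjusted over 15 pairs). Gad2 and Abat went together most closely (r = 0.69, adjusted p = 0.00113; rho = 0.55, adjusted p = 0.0118), with r = 0.74 in the two-letter and 0.63 in the one-letter series and 0.51 without the 2 animals farthest from the median of Gad2. Slc32a1 and Abat followed (r = 0.66, adjusted p = 0.00113; rho = 0.49, adjusted p = 0.0150), with r = 0.85 and 0.49 in the series and 0.46 without the 2 farthest animals. Slc6a11 and Abat also passed both (r = 0.37, adjusted p = 0.0435; rho = 0.51, adjusted p = 0.0118), but the relation held in the one-letter series alone (r = 0.66) and not in the two-letter series (r = -0.08), and r was 0.29 without the 2 farthest animals. Gad1 with Gad2, Slc32a1 and Abat passed with r only (0.53, 0.55 and 0.54), and r fell to 0.24, 0.43 and 0.37 without the 2 farthest animals.

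Slc6a13 varied with markers of the brain's coverings. Its level followed the summed leptomeninges and fibroblast markers, with r = 0.79 (permutation test over 41 animals, p = 1e-05, the lowest value possible with 100000 permutations, and adjusted p = 0.000480 over 48 relations of members and marker lists) and rho = 0.66 (adjusted p = 0.00384). Within the two-letter series r was 0.91, within the one-letter series 0.45, and without the 2 farthest animals 0.68. The 11 markers of the list, such as the collagens Col1a1 and Col3a1, were above 0 in every animal, and their summed level ran from 304 to 787 CPM in VEH, 154 to 1145 in PB and 361 to 868 in LEV. The lowest sum belonged to PB animal 2, which had also the lowest Slc6a13, at 37.8. With these markers as a covariate the difference of Slc6a13 between PB and VEH changed from 0.07 to -0.03, and it passed the test in neither fit. Abat and the excitatory neuron markers were correlated with r = 0.52 (adjusted p = 0.0398) but not with rho (0.38, adjusted p = 0.197), and r was 0.35 without the 2 farthest animals. Slc32a1 and the GABA neuron markers were correlated with rho = 0.49 (adjusted p = 0.0434) but not with r (0.27, adjusted p = 0.329), and r was 0.52 in the one-letter and -0.15 in the two-letter series. The remaining relations, those with the choroid plexus markers among them, did not pass.

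**Figure D4:**
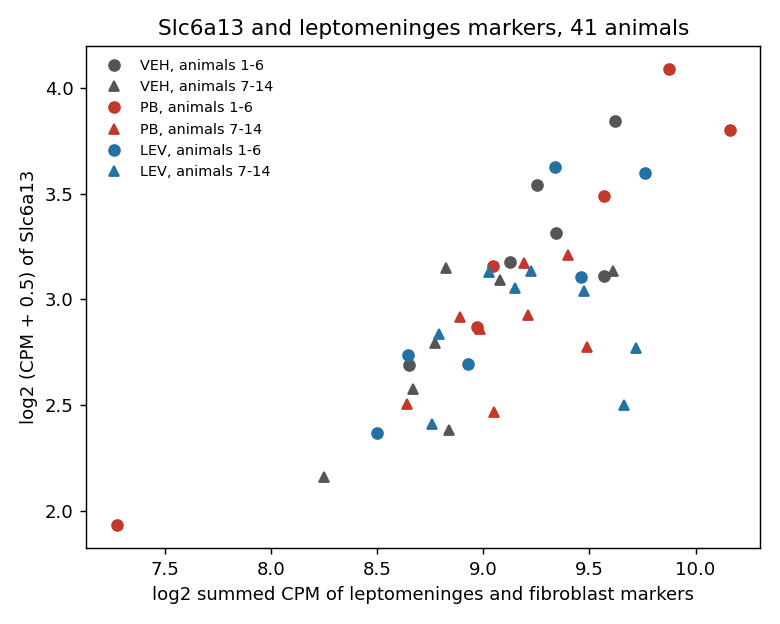
Log2 CPM of Slc6a13 in each of the 41 animals against the log2 summed CPM of the leptomeninges and fibroblast markers, coloured by treatment, with circles for the two-letter and triangles for the one-letter series. The points rise together (r = 0.79 after removal of the group means), with PB animal 2 at the lower left.

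As a description with no test, the 3 transcripts whose log2 CPM was most like each member's over the 41 animals were picked by Pearson's r among all tested, from libraries that share depth and composition effects. For Slc6a13 they were Ptgds (r = 0.87), the prostaglandin D synthase of the leptomeninges, and the collagens Col3a1 (0.86) and Col1a2 (0.85). For Abat they were the citrate synthase gene Cs (0.79), the microtubule-associated protein gene Map1a (0.79) and Ogdh (0.76), a subunit of the oxoglutarate dehydrogenase of the citric acid cycle. For Gad2 those reported were Akap5 (0.80), a scaffold for protein kinase A, and Rgs7bp (0.76), and for Gad1 Myadm (0.68), Cpne7 (0.67) and the sorting receptor Sort1 (0.66). Slc32a1 was most like the tubulin gene Tubb4b (0.73) and Traf3 (0.71), among the transcripts reported. Slc6a11 was most like Lrp1 (0.74), an endocytic receptor, the synaptic vesicle co-chaperone gene Dnajc5 (0.72) and Pcdhgc3 (0.72).

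A wider list held enzymes and carriers of glutamate, glutamine and GABA metabolism with neighbouring transporters and cofactor enzymes, and those of its transcripts that passed the test in PB against VEH were lower. Of its 29 genes, chosen like the members with earlier results known, 27 genes with 37 transcripts were tested, and in PB against VEH 8 transcripts of 7 genes were lower by the adjusted p and 0 were higher, beside 3.46% of all transcripts lower. The median log2 fold change was -0.07, beside 0.0046 over all transcripts. By both limits 1 gene was called, Slc7a10, which exchanges small neutral amino acids such as serine and glycine and does not carry GABA. Its normalized count was 406 ± 29.0 in the 13 VEH animals (mean ± SD), 316 ± 48.7 in the 14 PB animals and 395 ± 31.4 in the 14 LEV animals, and the log2 fold change in PB against VEH was -0.36 ± 0.05 (adjusted p = 5.08e-05).

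The other genes of the list with the smallest p were enzymes and carriers of glutamate metabolism. Aldh5a1, the succinic semialdehyde dehydrogenase that acts directly after Abat, differed by -0.16 ± 0.04 on the log2 scale in PB against VEH (adjusted p = 0.00426). Glud1, glutamate dehydrogenase, differed by -0.13 ± 0.03 (adjusted p = 0.00276). The aspartate aminotransferases differed by -0.20 ± 0.04 (Got1, adjusted p = 0.00495) and -0.11 ± 0.03 (Got2, adjusted p = 0.0243). Slc25a22, a mitochondrial glutamate carrier, appeared in 2 rows of the same accession that cannot be taken as separate measurements (-0.18 and -0.16, adjusted p = 0.0129 and 0.0139). For Slc1a3, the glial glutamate transporter, 1 of 4 transcripts was lower (-0.16 ± 0.05, adjusted p = 0.0286), and the 4 share reads. Each of these differences was under the fold limit.

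In LEV against VEH 0 of the 37 transcripts passed by the adjusted p and 4 had an unadjusted p under 0.05, all lower, beside 2.89% of all transcripts lower. Among those 4 were Glud1 (-0.08) and the Slc1a3 transcript that was lower in PB (-0.18). Between PB and LEV they differed by -0.05 (edgeR, adjusted p = 0.317) and 0.02 (adjusted p = 0.893). The median log2 fold change of the 37 transcripts in LEV against VEH was -0.02. In PB against LEV 5 transcripts of 4 genes (Slc7a10, Slc25a22, Got1 and Got2) were lower and 0 higher, beside 2.78% lower of all transcripts, with a median of -0.05. Slc7a10, the only gene called by both limits there, differed by -0.33 ± 0.05 (adjusted p = 0.000185), which is close to the fold limit. It was not called without PB animals 6, 7, 11 or 14 or LEV animals 2, 3 or 11. Without LEV animal 14 the count of called transcripts of the list was 2.

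**Figure D5:**
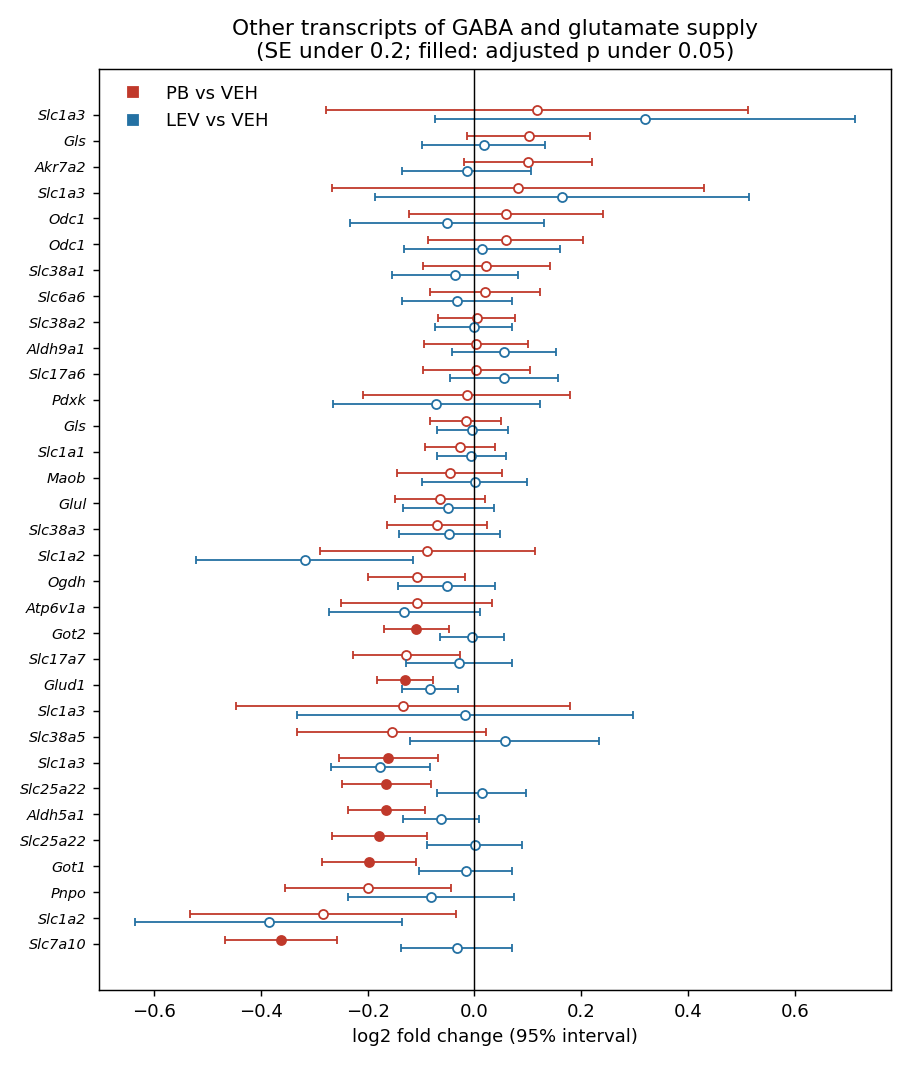
Log2 fold changes with 95% intervals in PB (red) and LEV (blue) against VEH for 33 transcripts of glutamate and GABA supply with an SE under 0.2 (4 less precise ones are not drawn), filled where the adjusted p is under 0.05. The 8 filled transcripts are all lower in PB, from Slc7a10 (-0.36) to Got2 (-0.11), and none is filled for LEV.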

How the data were processed

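Per the labels and the study's methods, the authors aligned reads to rn6 with STAR 2.7.3a and estimated counts per RefSeq transcript in Partek. The deposited values are these estimated counts, not normalized (13.7% of them not whole), and were rounded here. A deposited table of the authors' own comparisons (p-values, fold changes, group means) was not used. The members and lists were chosen with earlier results of these data known. edgeR 4.0.16 (R 4.3.3) was run with TMM scaling, filterByExpr, treatment plus form of sample code, and its quasi-likelihood test over 13062 transcripts and 41 animals, with Benjamini-Hochberg adjustment. A call needed adjusted p under 0.05 and a log2 change of at least 0.32, the study's fold limit. The study removed batch effects with a linear model and used DESeq2. DESeq2 1.42.0 is an alternative here. Normalized count is CPM scaled to the mean effective library size of 11405252 counts, and log2 values are log2(CPM + 0.5). Named genes were all members, pathway genes called, the 6 pathway genes of smallest p in PB against VEH, and the 3 transcripts most like each member, of which some are not reported here. Relations and ratios used 100000 permutations within series. The script was tested on simulated data. Animals are the replicates, with totals of 9499492 to 14488134 counts. The study balanced treatments within litter, and whether the animal numbers mark litters cannot be told from the labels. Same-numbered animals of different treatments correlated by over 0.1 in 10 of 40 pairs (median -0.02). They were not compared with differently numbered animals, so pairing by number was not tested, and the main fits did not pair animals. Alternatives tried were other scaling, filters, tests, batch terms, marker covariates, each series alone and each animal left out.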

Additional observations from a re-analysis of the deposited data

Results flagged for a closer look

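Within 6 to 8 animals of 1 treatment and series, 2 of 36 sets of values had a single animal set apart by a gap that is large beside the range of the others, and chance sets apart about 1 in 20. For Abat, PB animal 2 of the two-letter series had a normalized count of 421, while the next of its 6 animals had 608. Without this animal Abat differed by -0.23 between PB and VEH on the log2 scale and kept an adjusted p under 0.05. For Gad1, VEH animal 9 of the one-letter series had a normalized count of 1481, beside a median of 2048 in its 7 animals, and without it Gad1 differed by -0.19 between PB and VEH (edgeR, adjusted p = 0.0151, beside 0.0605 with it).

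The effect of LEV on Slc6a11 differed between the 2 series, by 0.52 on the log2 scale (one-letter minus two-letter, interaction term in edgeR, adjusted p = 0.0237). This difference did not pass without VEH animal 1, LEV animal 3 or LEV animal 6. Nor did it pass with the excluded VEH animal kept (edgeR, adjusted p = 0.275).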

How the results depend on the processing

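Of the settings other than leaving out 1 animal, 20 were tried, with 513 values labelled the same, 18 weaker, 6 stronger, 56 moved and 25 reversed. For a fold change, an interaction or a ratio, the same means the same call and direction. For a count or a correlation it means only a small shift, so a count labelled the same can differ. The cause of the changes below was not tested. Members called in PB against VEH rose from 0 to 1 in the one-letter animals alone (Slc32a1, with 168 of 13065 transcripts called) and with the excluded VEH animal kept (Abat, -0.33, with 68 of 13075), beside 79 of 13062 otherwise, and members with adjusted p under 0.05 went from 2 to 0 in the two-letter animals alone, 1 in the one-letter animals alone and 1 with GABA neuron markers as covariate (a setting added after seeing the data). Leaving out 1 animal gave 2 to 3. In LEV against VEH both counts went from 0 to 1 in the two-letter animals alone (Slc6a11), where 170 of 13112 transcripts were called and 346 had an adjusted p under 0.05, beside 0 and 1 of 13062 over both series. In PB against LEV the called count went from 0 to 2 in the one-letter animals alone (59 of 13065 transcripts, beside 76 of 13062), and the count by adjusted p went from 3 to 1 with no batch term, 0 in the two-letter animals alone and 1 with the excluded animal kept, and was 1 to 3 when 1 animal was left out. The count of members whose LEV effect differed between series went from 1 to 2 with a mean of at least 50 counts or robust dispersion and to 0 with the excluded animal kept, and was 0 to 2 when 1 animal was left out. Called pathway transcripts in PB against VEH rose from 1 to 2 in the two-letter animals alone. Pathway transcripts lower by the adjusted p went from 8 to 2 in the two-letter animals, 3 in the one-letter animals and 5 with the excluded animal kept. In LEV against VEH called pathway transcripts went from 0 to 6 in the two-letter animals alone, with the 170 of 13112 transcripts called there. Pathway transcripts lower by the adjusted p went from 0 to 4 in that setting, so that not all 6 were decreases. With a batch by treatment term they went from 0 to 1. In PB against LEV called pathway transcripts went from 1 to 0 with a batch by treatment term and in the two-letter animals alone (0 to 2 when 1 animal was left out). Those lower by the adjusted p went from 5 to 1 in either series alone and with the excluded animal kept.

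Signs that reversed are as follows. In the one-letter animals alone they were 0.024 for Slc6a11 in PB against VEH, -0.022 for Gad1, 0.044 for Gad2, 0.11 for Slc6a11, 0.093 for Slc6a13 and 0.16 for Abat in LEV against VEH, and -0.086 for Slc6a11 and -0.0090 for Slc6a13 in PB against LEV. In the two-letter animals alone they were -0.049 for Slc32a1 in LEV against VEH, 0.026 for Gad2 in PB against LEV, and r = -0.081 for Slc6a11 with Abat. Slc6a11 in LEV against VEH passed in the two-letter animals alone, and its relation with Abat passed over both series. With the excluded VEH animal kept they were -0.066 for Slc6a13 in PB against VEH and -0.014 for Slc32a1 in LEV against VEH. Slc6a13 in PB against VEH was -0.033 with leptomeninges, -0.018 with choroid plexus and -0.055 with GABA neuron markers as covariate. Without both PB animal 2 and VEH animal 9 (added after seeing the data), Gad1 was -0.013 and Slc32a1 -0.0012 in LEV against VEH, and Gad2 was 0.0040 and Slc6a11 -0.011 in PB against LEV. Leptomeninges markers as covariate gave -0.0071 for Slc32a1 in LEV against VEH and -6.4e-05 for Slc6a11 in PB against LEV, which was -0.0028 with no filter on low counts and -0.00072 with no batch term. Relative to GABA neuron markers Gad2 was 0.0042 in PB against LEV. Leaving out 1 animal turned the sign of Gad1 (-0.015 to 0.030), Slc32a1 (-0.0037 to 0.031) and Slc6a13 (-0.10 to 0.012) in LEV against VEH, of Gad2 (-0.057 to 0.0012) and Slc6a11 (-0.021 to 0.025) in PB against LEV, and of Slc6a13 (-0.028 to 0.15) in PB against VEH.

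Gad1 in PB against VEH passed the adjusted p with leptomeninges markers as covariate (0.0331), without PB animal 2 and VEH animal 9 together (0.0307), and in 6 of 41 fits that left out 1 animal (VEH animals 2 or 9, PB animals 3, 5, 12 or 13). With the animal number as a replicate block, the members with adjusted p under 0.05 were 2 in PB against VEH, 0 in LEV against VEH and 2 in PB against LEV, where Abat had adjusted p = 0.0575. Transcripts of Slc6a13 had few counts and a wide spread, which limits what can be detected for it.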

Other observations

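The VEH animal that the study excluded, for an average coverage and a genomic coverage unlike the rest, was the highest of the vehicle animals for 3 members. It was scaled by its total count alone, whereas the 13 others were also TMM-scaled, so its rank among them is approximate. On this scale the excluded animal had 1384 for Slc6a11, 171 for Slc6a13 and 1148 for Abat, above all 13 other VEH animals in each case. For Slc32a1 it had 1400, above 11 of 13, for Gad1 1807 and for Gad2 764, each above 3 of 13.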
